A study of Homo sapiens with 18 samples.

Results

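The 10 genes described here encode the core of the mTOR complexes and the regulators that act on them most directly: MTOR, RPTOR, RICTOR, MLST8, DEPTOR, AKT1S1, TSC1, TSC2, RHEB and RRAGB. They were chosen by name, and each is represented by the probe set that carries its symbol alone. All 10 were found among the 18417 genes measured with a single symbol. RHEB was the only one with 2 such probe sets, and the brighter was used. RNA was measured on 18 Affymetrix Gene arrays of NCI-H1299, an established line of non-small cell lung carcinoma cells that lack p53. All cells, controls included, had been transiently transfected with a pIRES-2EGFP plasmid, sorted for green fluorescence and harvested 40 hours after transfection.

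The arrays form 2 sets of 9 with 3 arrays per group. In set 1, experiments 0, 4 and 5 each gave 1 array of cells with the empty GFP vector, 1 with WTp53, the wild-type protein, and 1 with ΔNp53:WTp53, the pairing of WTp53 with an isoform that lacks part of the N terminus. These were independent transfections according to the series. In set 2, called control experiments and lettered d, e and f, the empty GFP vector and WTp53 were joined by tethered WTp53. The source of the spread between those arrays is not stated and may be technical. The tethered arrays were grouped by their titles, although their transfection field names ΔNp53:WTp53. Levels are log2 intensities on 2 different scales, so a level in set 1 was never set against one in set 2, and differences are reported within a set. The probe sets of different genes were not compared in level either. In these bulk samples, fewer cells with a transcript and less of it per cell cannot be told apart.

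mTOR is a serine/threonine kinase that works in 2 complexes. In mTORC1 the scaffold raptor (RPTOR) brings substrates such as S6 kinase and 4E-BP1, and the complex drives protein synthesis and restrains autophagy. In mTORC2 the scaffold rictor (RICTOR) replaces raptor, and the complex phosphorylates AKT and related kinases. mLST8 (MLST8) binds the kinase domain in both, DEPTOR inhibits both and PRAS40 (AKT1S1) inhibits mTORC1. Growth factors act through hamartin (TSC1) and tuberin (TSC2), which together switch off the small GTPase Rheb (RHEB), the direct activator of mTORC1. Amino acids act through the Rag GTPases, of which RagB (RRAGB) is one, by placing mTORC1 at the lysosome. p53 is known to restrain mTORC1 through targets such as the sestrins and TSC2.

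MTOR, RICTOR and RRAGB are the kinase and the members with the largest changes in set 1, and their promoters are shown to let the sequence be read beside those changes. The 250 bases before the start of each were taken from RefSeq (GRCh38.p14), 5′ to 3′ on the strand of the gene, with capitals for every match to a motif named below, on either strand.
MTOR, chr1:11262552-11262801, minus strand: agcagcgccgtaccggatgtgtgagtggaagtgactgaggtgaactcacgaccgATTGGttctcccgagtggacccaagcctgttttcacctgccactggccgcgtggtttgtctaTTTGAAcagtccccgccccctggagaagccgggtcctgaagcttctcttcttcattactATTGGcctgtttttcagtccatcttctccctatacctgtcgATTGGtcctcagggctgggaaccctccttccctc
RICTOR, chr5:39074400-39074649, minus strand: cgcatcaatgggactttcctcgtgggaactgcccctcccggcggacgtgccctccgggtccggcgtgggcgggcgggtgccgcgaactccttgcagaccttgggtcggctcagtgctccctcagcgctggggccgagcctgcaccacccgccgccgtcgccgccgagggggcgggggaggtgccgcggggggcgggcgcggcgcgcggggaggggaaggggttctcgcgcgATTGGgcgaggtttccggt
RRAGB, chrX:55717499-55717748, plus strand: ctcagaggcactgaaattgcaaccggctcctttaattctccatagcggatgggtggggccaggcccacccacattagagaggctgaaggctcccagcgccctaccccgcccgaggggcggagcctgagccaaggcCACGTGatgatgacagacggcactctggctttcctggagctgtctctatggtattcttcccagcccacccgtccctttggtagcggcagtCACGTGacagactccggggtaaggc

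The table held windows for 7 of the 10 genes, and none was printed or searched for MLST8, DEPTOR and AKT1S1. The p53 half-site matched in 5.57% of all 35116 windows and in 0 windows of these genes, which says only that those letters are not in this stretch. CCAAT, the box bound by NF-Y, stood in 32.0% of windows and 3 times in that of MTOR, as well as in those of RICTOR and RHEB. TTTGAA, the core of the cell cycle homology region, stood in 13.3% of windows and in those of MTOR, RHEB and RPTOR. The E-box CACGTG, a sequence that TFEB and related factors are known to read, stood in 6.34% of windows, once in that of TSC2 and in 2 places in that of RRAGB. Each match is a description of letters, and binding was not measured.

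WTp53 against the vector in set 1 shows the transcripts when p53 is returned to p53-null cells. RICTOR, RRAGB and TSC1 fell and TSC2 rose, so that 3 of 10 genes fell and 1 rose at a limma adjusted p under 0.05, against 16.6% and 15.2% of all genes (31.8% in either direction). The median of the 10 differences was −0.20 (log2), and that of all genes was 0.02. The groups did not overlap for 7 of the 10, against 48.8% of all genes. The other 6 genes did not pass, with differences from −0.37 for MTOR to 0.18 for DEPTOR. The count called was 2 in place of 4 without any array of experiment 4, and 7 with all 18 arrays in one fit. Over all genes it was 2111 and 8052 in these settings, in place of 5862.

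ΔNp53:WTp53 against the vector in set 1 was the second comparison with the shared control. MTOR, RICTOR, AKT1S1, TSC1, RHEB and RRAGB fell and DEPTOR rose, which makes 6 of 10 down and 1 up, against 20.3% and 15.7% of all genes (36.1% in either direction). The median difference was −0.36, and that of all genes was 0.01. For 9 of the 10 genes the groups did not overlap, against 45.6% of all genes; RPTOR was the exception. Without any array of experiment 4 the count called was 1, without any of experiment 5 it was 0, and without experiment 0 it was 7. Over all genes the count went from 6640 to 1871, 2599 and 8101 in the same order. This comparison and the previous one share their vector arrays.

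In set 2 the same 2 questions were asked with WTp53 and the tethered construct. With WTp53, MTOR, RPTOR, RICTOR, AKT1S1 and TSC1 fell and none rose, 5 of 10 against 18.9% of all genes that fell, 17.9% that rose and 36.8% in either direction. With tethered WTp53, MTOR, RPTOR, RICTOR, AKT1S1, TSC1, RHEB and RRAGB fell and DEPTOR rose, 7 and 1 of 10 against 26.2% and 21.6% of all genes (47.8% in either direction). With each array centred on its median, the genes that rose and fell over all genes went from 3294 and 3475 to 2774 and 4749 for WTp53, and from 3974 and 4821 to 3096 and 6596 for tethered WTp53. The median differences were −0.17 and −0.37, and those of all genes −0.02 and 0.00. The groups did not overlap for 5 and 8 of the 10 genes, against 47.2% and 52.3%. Both comparisons share the vector arrays of set 2. RICTOR and TSC1 fell in all 4 comparisons with the vector, and MLST8 was called in none of them.

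**Figure D1:**
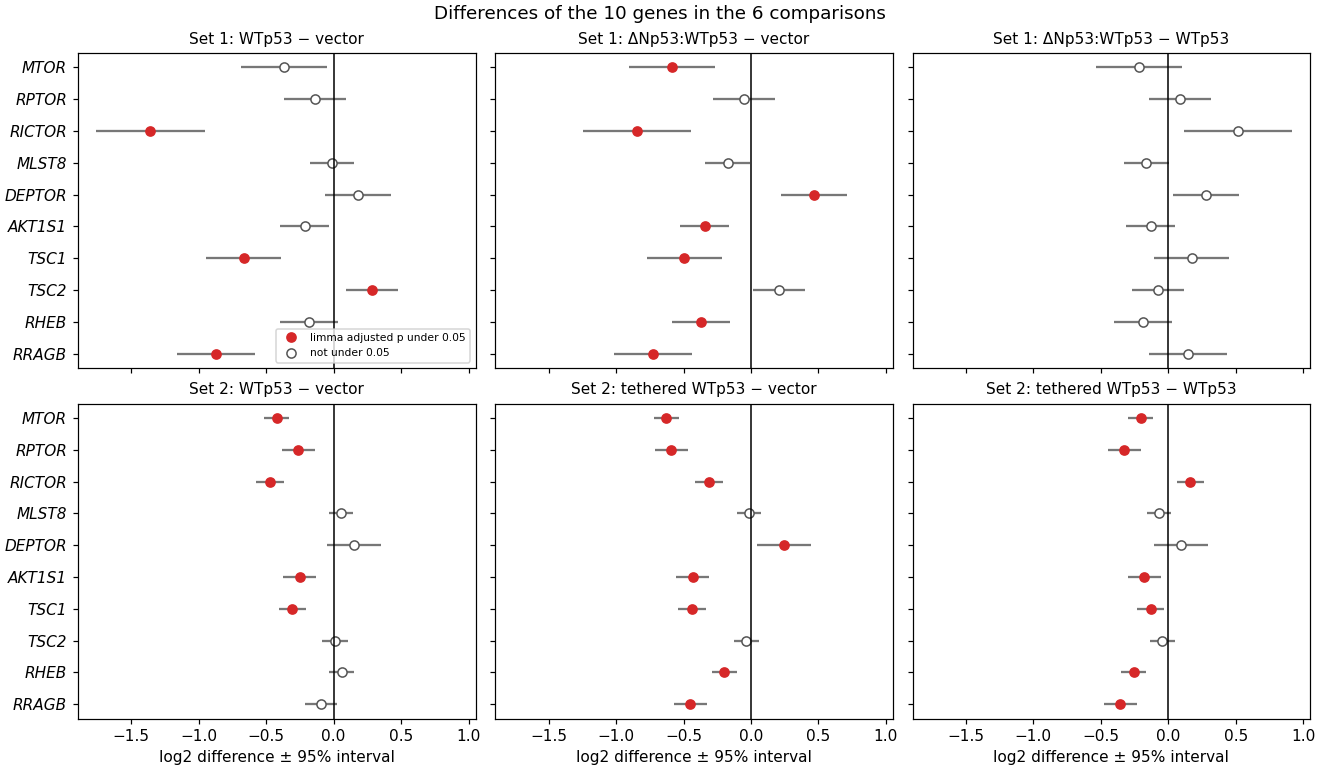
Log2 difference of each gene (horizontal axis, point, with its 95% interval from the limma fit of that set) in the 6 comparisons, with 3 arrays per group. Filled red points passed a limma adjusted p of 0.05 over all genes; intervals are wider in set 1, where 0 of 10 genes passed for ΔNp53:WTp53 against WTp53.

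The labels were checked on CDKN1A, the p53 target that encodes p21, which rose by 3.13 to 4.62 in the 4 comparisons with the vector, and MDM2, which rose by 2.11 to 3.41. Of 6 genes listed for epithelial carcinoma cells, 3 lay above the median of all genes in both sets (KRT8, KRT18 and VIM). VIM encodes vimentin, which is not an epithelial marker. The other 3, KRT19, EPCAM and CDH1, lay below that median, and of 5 lung epithelial markers 0 lay above it. Of 7 leukocyte markers 1 did (TYROBP), and of 8 fibroblast and endothelial markers 0 did in set 1 and 1 in set 2 (COL1A1). The median SD of a gene within a group was 0.104 to 0.151 in set 1 and 0.0493 to 0.0693 in set 2, so smaller differences could be called in set 2. An exact permutation test of 3 arrays against 3 cannot give a p below 0.1, so p-values come from the limma fit across all genes.

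MTOR, the kinase itself, was lower with every p53 construct. In set 1 its log2 level in experiments 0, 4 and 5 was 7.98, 8.19 and 8.36 with the vector, 7.67, 7.85 and 7.90 with WTp53, and 7.82, 7.63 and 7.32 with ΔNp53:WTp53. Every p53 array lay below every vector array, and the ΔNp53:WTp53 arrays spread widest, with experiment 5 lowest. The fall with ΔNp53:WTp53 was 1.50-fold, −0.59 ± 0.14 (log2 difference ± SE, n = 3 per group, limma adjusted p = 0.00939), and it was −0.15, −0.56 and −1.04 within experiments 0, 4 and 5. It did not pass without experiment 4 or without experiment 5 (limma adjusted p = 0.127 and 0.134). With WTp53 the difference was −0.37 ± 0.14, which did not pass (limma adjusted p = 0.0769). It passed under 6 of 21 alternatives, among them all 18 arrays in one fit (limma adjusted p = 0.0107), only the 6 arrays of both groups (0.0369) and no arrays of experiment 0 (0.0332).

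In set 2 MTOR stood at 10.27, 10.27 and 10.24 with the vector in experiments d, e and f, at 9.86, 9.80 and 9.85 with WTp53, and at 9.60, 9.61 and 9.69 with tethered WTp53. The 3 groups were stepwise lower with no overlap between any of them. WTp53 lowered it by 0.42 ± 0.04 (limma adjusted p = 1.47e-05) and tethered WTp53 by 0.63 ± 0.04, or 1.54-fold (limma adjusted p = 3.68e-07). Both falls passed under all 21 alternatives tried. Those that change only which probe sets are read leave the values of MTOR, which has 1 probe set, as they were.

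**Figure D2:**
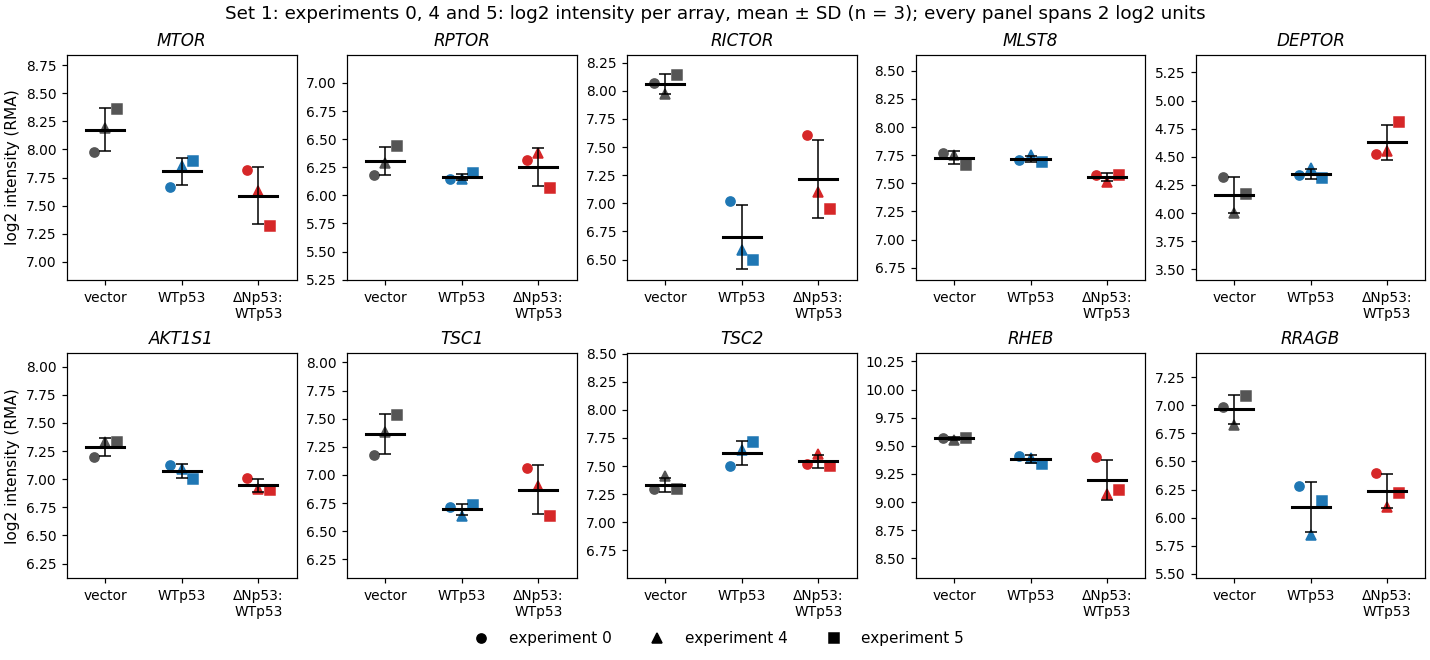
Log2 intensity (vertical axis) of the 10 genes on each array of set 1, by group, with symbols for experiments 0, 4 and 5 and bars for mean ± SD (n = 3). Between vector and WTp53 arrays RICTOR shows the widest gap of the 10 genes (0.95), and between vector and ΔNp53:WTp53 arrays the gap is 0.43 for RRAGB and 0.36 for RICTOR.

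RICTOR fell in all 4 comparisons with the vector, and RPTOR fell in the 2 of set 2. RICTOR, which defines mTORC2, was measured in set 1 at 8.07, 7.97 and 8.14 with the vector, 7.02, 6.59 and 6.50 with WTp53, and 7.61, 7.10 and 6.95 with ΔNp53:WTp53. All p53 arrays were below all vector arrays, and experiment 0 was the highest array of both p53 groups. WTp53 lowered it 2.57-fold, by 1.36 ± 0.18 (limma adjusted p = 4.01e-04), a difference exceeded in size by 3.26% of all genes. ΔNp53:WTp53 lowered it 1.79-fold, by 0.84 ± 0.18 (limma adjusted p = 0.00479), which did not pass without experiment 4 or 5 (limma adjusted p = 0.0899 and 0.0891).

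In set 2 RICTOR stood at 9.37, 9.43 and 9.33 with the vector, 8.86, 8.97 and 8.88 with WTp53, and 9.03, 9.09 and 9.08 with tethered WTp53. The vector was highest, tethered WTp53 intermediate and WTp53 lowest, with no overlap. The falls were 0.47 ± 0.05 with WTp53 (limma adjusted p = 1.42e-05) and 0.31 ± 0.05 with tethered WTp53 (limma adjusted p = 1.80e-04; 0.104 with all 18 arrays in one fit).

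RPTOR, which defines mTORC1, did not pass in set 1. Its levels were 6.19, 6.29 and 6.44 with the vector, 6.15, 6.15 and 6.20 with WTp53, and 6.31, 6.38 and 6.06 with ΔNp53:WTp53. The groups overlapped, and the differences from the vector were −0.14 ± 0.10 and −0.05 ± 0.10 (limma adjusted p = 0.362 and 0.759), with 95% intervals of −0.37 to 0.09 and −0.28 to 0.18. In set 2 it stood at 8.51, 8.56 and 8.59 with the vector, 8.31, 8.28 and 8.28 with WTp53, and 7.84, 8.00 and 8.05 with tethered WTp53. There the groups were separate, with tethered WTp53 lowest. The falls were 0.26 ± 0.05 with WTp53 (limma adjusted p = 0.00291, and 0.0552 without experiment e) and 0.59 ± 0.05 with tethered WTp53, or 1.51-fold (limma adjusted p = 4.91e-06).

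MLST8, the subunit common to both complexes, passed in none of the 6 comparisons. Its group means were 7.73 ± 0.06, 7.71 ± 0.03 and 7.55 ± 0.03 (SD, n = 3) for vector, WTp53 and ΔNp53:WTp53 in set 1. In set 2 the means were 9.72 ± 0.04, 9.78 ± 0.04 and 9.71 ± 0.03 for vector, WTp53 and tethered WTp53. The 3 ΔNp53:WTp53 arrays lay below the other arrays of set 1, by −0.17 ± 0.07 against the vector (limma adjusted p = 0.102), which passed with all 18 arrays in one fit (limma adjusted p = 0.0121).

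The 2 inhibitory subunits went in opposite directions with the combination. DEPTOR, the inhibitor found in both complexes, was dim, between the 26.0 and 36.3 percentile of genes on every array. In set 1 its levels were 4.32, 4.00 and 4.17 with the vector, 4.34, 4.40 and 4.31 with WTp53, and 4.52, 4.55 and 4.81 with ΔNp53:WTp53. The ΔNp53:WTp53 arrays were above all others, while WTp53 and vector arrays overlapped. The rise with ΔNp53:WTp53 was 1.38-fold, 0.46 ± 0.11 (limma adjusted p = 0.00788), and it did not pass without experiment 4 or 5 (limma adjusted p = 0.113 and 0.114). In set 2 the levels were 6.56, 6.64 and 6.39 with the vector and 6.89, 6.71 and 6.72 with tethered WTp53, a rise of 0.24 ± 0.09 (limma adjusted p = 0.0481). That call was lost when each array was centred on its median (limma adjusted p = 0.131), after a second quantile normalization (0.0771), with all 18 arrays in one fit (0.0882) and without any of 6 single arrays or experiments d or f.

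AKT1S1, which encodes the mTORC1 inhibitor PRAS40, was measured in set 1 at 7.20, 7.33 and 7.33 with the vector, 7.13, 7.09 and 7.01 with WTp53, and 7.01, 6.91 and 6.91 with ΔNp53:WTp53. Every p53 array lay below every vector array. It fell by 0.34 ± 0.08 with ΔNp53:WTp53 (limma adjusted p = 0.00813, and 0.175 and 0.113 without experiment 4 or 5). With WTp53 the difference of −0.21 ± 0.08 did not pass (limma adjusted p = 0.0725), and did when arrays were centred on their medians (limma adjusted p = 0.0305). In set 2 the vector means of 9.53 ± 0.06 compared with 9.28 ± 0.10 for WTp53 and 9.10 ± 0.02 for tethered WTp53 (SD, n = 3), falls of 0.25 ± 0.06 and 0.43 ± 0.06 (limma adjusted p = 0.00414 and 5.84e-05). The first did not pass without experiment f (0.0504).

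**Figure D3:**
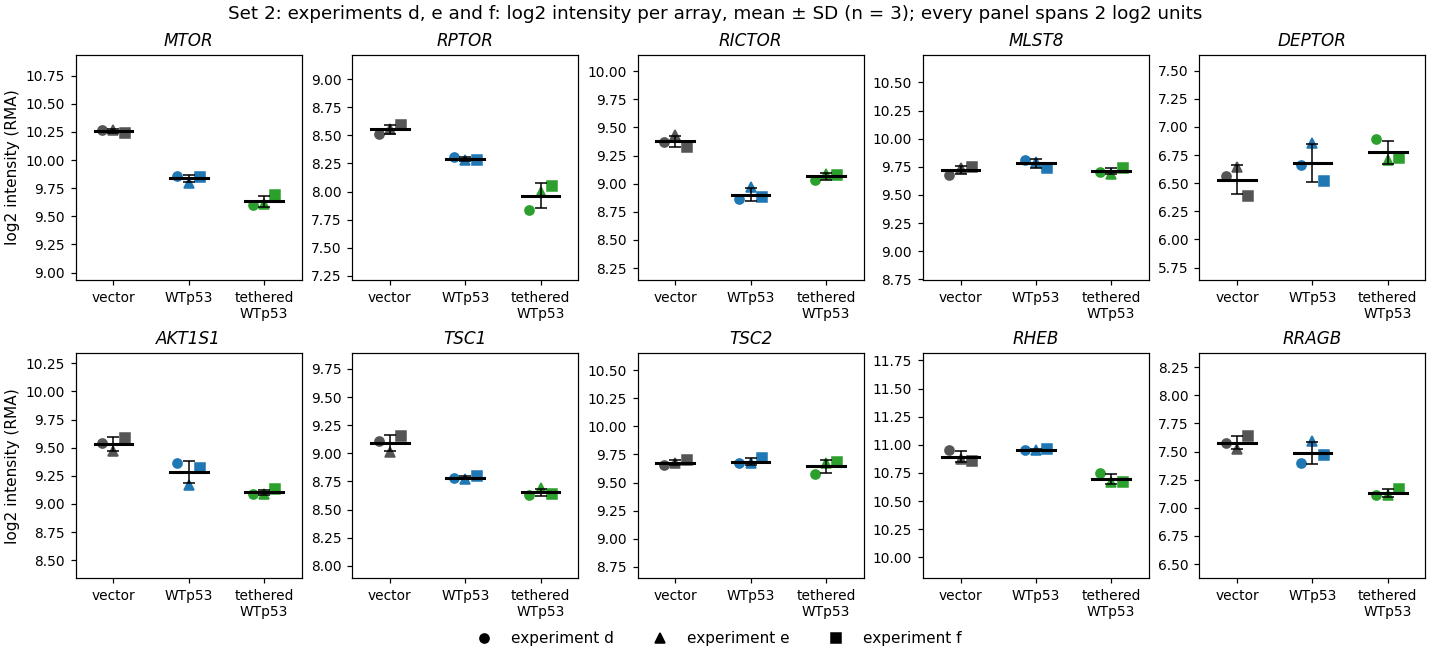
Log2 intensity (vertical axis) of the 10 genes on each array of set 2, by group, with symbols for experiments d, e and f and bars for mean ± SD (n = 3). MTOR steps down from vector to WTp53 to tethered WTp53, while RICTOR is lowest with WTp53 and the 3 TSC2 group means lie between 9.64 and 9.69.

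TSC1 and TSC2, the partners in the complex that switches Rheb off, went in opposite directions with WTp53 in set 1. TSC1 stood at 7.18, 7.38 and 7.53 with the vector, 6.72, 6.64 and 6.73 with WTp53, and 7.07, 6.91 and 6.64 with ΔNp53:WTp53. All p53 arrays were lower than all vector arrays. It fell 1.59-fold with WTp53, by 0.67 ± 0.12 (limma adjusted p = 0.00258, and 0.0816 without experiment 4). With ΔNp53:WTp53 it fell 1.41-fold, by 0.49 ± 0.12 (limma adjusted p = 0.0111), and by 0.12, 0.47 and 0.89 within experiments 0, 4 and 5; this call was lost without experiment 4 (limma adjusted p = 0.138), without experiment 5 (0.161) and, at the threshold, without the vector array of experiment 5 (0.05 after rounding).

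TSC2, a known p53 target, stood in set 1 at 7.30, 7.41 and 7.30 with the vector, 7.50, 7.64 and 7.71 with WTp53, and 7.52, 7.61 and 7.50 with ΔNp53:WTp53. The vector arrays were the lowest 3 of the 9. The rise with WTp53 was 1.22-fold, 0.28 ± 0.09 (limma adjusted p = 0.0292). It did not pass when arrays were centred on their medians (limma adjusted p = 0.0796), nor without either vector array of experiments 0 and 5 or either WTp53 array of experiments 4 and 5 (0.0766 to 0.108), nor without all arrays of experiment 4 or 5 (0.182 and 0.252). With ΔNp53:WTp53 the difference was 0.21 ± 0.09 (limma adjusted p = 0.0907, and 0.0121 with all 18 arrays in one fit).

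In set 2 TSC1 was at 9.11, 9.01 and 9.15 with the vector, 8.78, 8.77 and 8.80 with WTp53, and 8.63, 8.69 and 8.64 with tethered WTp53, with no overlap between groups. It fell by 0.31 ± 0.05 with WTp53 (limma adjusted p = 2.90e-04) and by 0.44 ± 0.05 with tethered WTp53 (limma adjusted p = 1.15e-05). TSC2 did not pass there: the group means were 9.68 ± 0.02, 9.69 ± 0.03 and 9.64 ± 0.06 (SD, n = 3). Its differences from the vector were 0.01 ± 0.04 and −0.03 ± 0.04, with 95% intervals of −0.08 to 0.10 and −0.13 to 0.06.

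RHEB, the GTPase that activates mTORC1, is read by 2 probe sets, and RefSeq lists 3 pseudogenes of it, so either probe set could share signal with a near-identical copy. On the brighter one the set 1 levels were 9.57, 9.55 and 9.57 with the vector, 9.41, 9.39 and 9.34 with WTp53, and 9.40, 9.08 and 9.11 with ΔNp53:WTp53. The vector arrays lay above all p53 arrays and varied least (SD 0.0093). The fall with ΔNp53:WTp53 was 0.37 ± 0.10 (limma adjusted p = 0.0125), and it did not pass without the ΔNp53:WTp53 array of experiment 4 (limma adjusted p = 0.0548) or without experiment 4 or 5 as a whole (0.195 and 0.154). In set 2 RHEB did not pass with WTp53 (0.06 ± 0.04, limma adjusted p = 0.317) and fell by 0.20 ± 0.04 with tethered WTp53 (limma adjusted p = 0.0026). The dimmer probe set gave differences of −0.45 for ΔNp53:WTp53 and −0.31 for tethered WTp53, and both passed as well (limma adjusted p = 0.0132 and 0.000489). For WTp53 it gave −0.31 in set 1 and 0.10 in set 2, and neither passed (limma adjusted p = 0.0727 and 0.176). Which of the 2 probe sets lies at RHEB itself was not checked.

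RRAGB, the Rag GTPase of the list, fell with both constructs in set 1. Its levels were 6.99, 6.82 and 7.08 with the vector, 6.28, 5.84 and 6.15 with WTp53, and 6.39, 6.10 and 6.22 with ΔNp53:WTp53. The 6 p53 arrays all lay below the vector arrays, and both p53 groups overlapped. WTp53 lowered it 1.83-fold, by 0.87 ± 0.13 (limma adjusted p = 7.61e-04), and ΔNp53:WTp53 lowered it 1.65-fold, by 0.72 ± 0.13 (limma adjusted p = 0.0019, and 0.0644 without experiment 5). In set 2 it was 7.58, 7.52 and 7.64 with the vector, 7.40, 7.59 and 7.47 with WTp53, and 7.11, 7.11 and 7.17 with tethered WTp53. There WTp53 overlapped the vector (−0.09 ± 0.06, limma adjusted p = 0.224), while tethered WTp53 lay below both and was lower than the vector by 0.45 ± 0.06 (limma adjusted p = 4.00e-05). Of its relatives, RRAGA, RRAGC and RRAGD differed by −0.25, 0.07 and 0.16 with WTp53 in set 1, and none of these passed.

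ΔNp53:WTp53 against WTp53 in set 1 asks what the combination adds to wild-type p53. By the limma test 0 of 10 genes passed, against 2.44% of all genes (1.56% rose and 0.88% fell). An unadjusted limma p under 0.05 was found for 2 of the 10 (RICTOR and DEPTOR). By rank of p, between 3137 and 3494 of all 18417 genes lay under it, so 2 of 10 lies near the background. The groups did not overlap for 2 of the 10 (MLST8 and DEPTOR), against 20.6% of all genes. RICTOR was higher with the combination by 0.52 ± 0.18, with a 95% interval of 0.11 to 0.92 and within-experiment differences of 0.58, 0.51 and 0.45 (limma adjusted p = 0.17). It passed with all 18 arrays in one fit (limma adjusted p = 0.0206) and without any array of experiment 0 (0.0226). DEPTOR was higher by 0.28 ± 0.11 (limma adjusted p = 0.217) and MLST8 lower by 0.16 ± 0.07 (0.293). MTOR differed by −0.22 ± 0.14 with an interval of −0.54 to 0.10, and by 0.15, −0.22 and −0.58 within experiments 0, 4 and 5. RHEB differed by −0.19 ± 0.10, and by −0.29 without the ΔNp53:WTp53 array of experiment 0, where it passed (limma adjusted p = 0.044). With the experiment as a block 0 of 10 genes passed as well, while 806 of all genes did in place of 449.

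Tethered WTp53 against WTp53 in set 2 asks the matching question for the tethered construct. RPTOR, RRAGB, RHEB, MTOR, AKT1S1 and TSC1 were lower and RICTOR was higher, 6 and 1 of 10, against 17.5% and 14.9% of all genes (32.4% in either direction; centring moved the rises and falls over all genes from 2739 and 3231 to 2118 and 3956). For 7 of the 10 the groups did not overlap, against 42.6% of all genes. RRAGB was lower by 0.36 ± 0.06 (limma adjusted p = 7.69e-04), RPTOR by 0.33 ± 0.05 (0.00125), RHEB by 0.26 ± 0.04 (0.00117) and MTOR by 0.20 ± 0.04 (0.00378). RICTOR was higher by 0.16 ± 0.05 (limma adjusted p = 0.0203), and it did not pass without experiment d or f (0.118 and 0.13) or with all 18 arrays in one fit (0.524), and in all was lost under 6 of 21 alternatives. AKT1S1, lower by 0.18 ± 0.06 (limma adjusted p = 0.0294), was lost under 7 of 21, with adjusted p from 0.00858 to 0.241 over all of them. TSC1 was the closest to the threshold, at −0.13 ± 0.05 (limma adjusted p = 0.05 after rounding). It was lost under 12 of 21 alternatives, which included leaving out any 1 experiment (0.0647 to 0.234), the experiment as a block (0.07), a second quantile normalization (0.0556) and all 18 arrays in one fit (0.447). With all 18 arrays in one fit 3 genes passed, and MTOR did not (0.274); without experiment d 3 passed, without f 4, and without the WTp53 array of experiment d or f 4.

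Differences between the sets were tested as differences of within-set effects, with a variance weight per set. Where ΔNp53:WTp53 is set against tethered WTp53, construct and set cannot be told apart. Differences were smaller in set 2 over all genes: the median absolute WTp53 difference was 0.198 in set 1 and 0.107 in set 2. In the same order, 555 and 61 genes both passed and were at least 2-fold lower, and CDKN1A rose by 4.62 and 3.13. The part of this in the differences below was not tested. The WTp53 effect differed for RICTOR, which was lowered more in set 1 than in set 2 by 0.89 ± 0.17 (limma adjusted p = 0.00284), and for RRAGB by 0.78 ± 0.14 (0.00215). These were 2 of 10 genes, against 13.2% of all genes. Without the ΔNp53:WTp53 array of experiment 0 the count was 5 of 10, and that over all genes went from 2440 to 3686. For MTOR the effects of −0.37 and −0.42 differed by 0.05 ± 0.13, with a 95% interval of −0.23 to 0.34. The effect of ΔNp53:WTp53 against the vector differed from that of tethered WTp53 for RPTOR, at −0.05 and −0.59, a difference of 0.54 ± 0.12 (limma adjusted p = 0.0151); this was 1 of 10 genes, against 6.88% of all genes. The RPTOR difference did not pass without the vector array of experiment 4 (limma adjusted p = 0.059) or the ΔNp53:WTp53 array of experiment 4 (0.0816). With the experiment as a block RICTOR passed too (−0.53, limma adjusted p = 0.0192). Without the ΔNp53:WTp53 array of experiment 0, 3 genes passed, and 2 did without the WTp53 array of experiment 0. Over all genes these settings gave 1852, 3893 and 1270 calls, in place of 1267. Set against WTp53 in place of the vector, 0 of 10 differences passed by the limma test, against 2.51% of all genes. An unadjusted limma p under 0.05 was found for 4 of them, and the share of all genes under it was not counted. The nearest to passing was RRAGB at 0.50 ± 0.14 (limma adjusted p = 0.0664, and 0.0359 with the experiment as a block). It passed without the WTp53 array of experiment 0 (0.0401), and RPTOR did without the ΔNp53:WTp53 array of experiment 5 (0.0443).

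**Figure D4:**
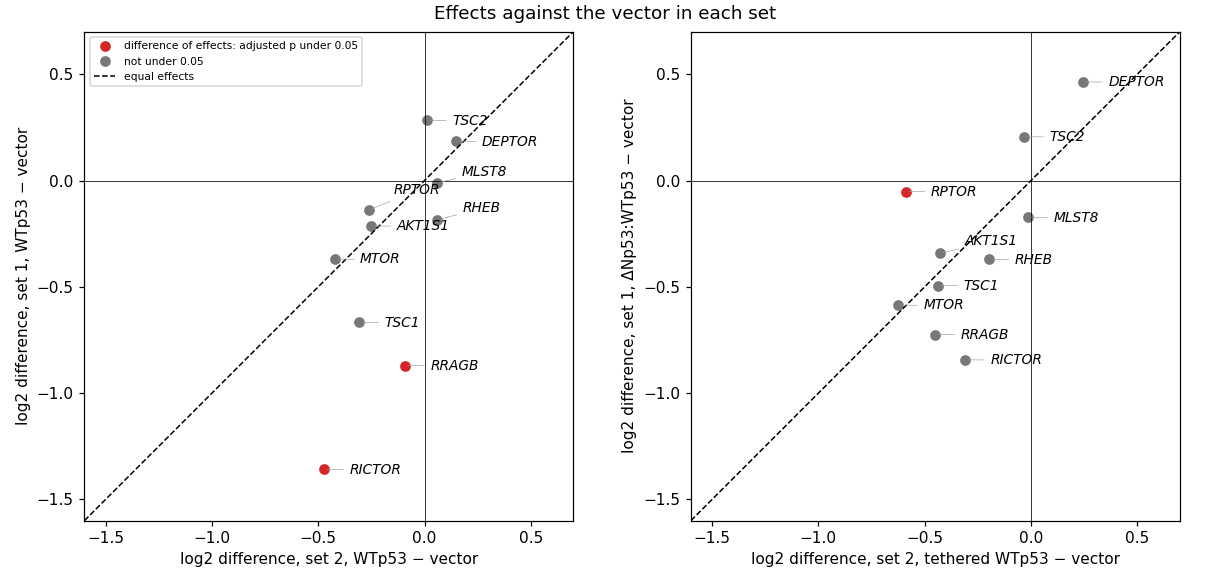
Log2 difference against the vector in set 1 (vertical axis) and set 2 (horizontal axis) for WTp53 (left) and for ΔNp53:WTp53 against tethered WTp53 (right), 3 arrays per group. RICTOR and RRAGB lie farthest below the line of equal effects on the left, and RPTOR lies above it on the right; those 3 are the red points.

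The wider pathway was read from 74 further genes in 6 lists, of which 64 were measured and the other 10 were not analysed here. Against the vector 19 of 64 rose and 15 fell with WTp53 in set 1, 17 and 15 with ΔNp53:WTp53, 18 and 21 with WTp53 in set 2, and 16 and 29 with tethered WTp53. In the same order, 15.2%, 15.7%, 17.9% and 21.6% of all genes rose and 16.6%, 20.3%, 18.9% and 26.2% fell. The median differences of the 64 were 0.02, −0.06, −0.03 and −0.03, and those of all genes 0.02, 0.01, −0.02 and 0.00.

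Stress inputs linked to p53 came first. Of 10 stress input genes 5 rose and 3 fell with WTp53 and 4 rose and 3 fell with ΔNp53:WTp53 in set 1, and 6 rose and 2 fell with either construct in set 2. Of all genes 15.2% to 21.6% rose and 16.6% to 26.2% fell in these 4 comparisons. SESN1, a sestrin, had the smallest p among them, at 3.32 ± 0.13 with WTp53 in set 1 (limma adjusted p = 1.33e-06). PRKAB1, a regulatory subunit of AMPK, rose by 0.71 ± 0.04 with WTp53 and 1.07 ± 0.04 with tethered WTp53 in set 2 (limma adjusted p = 5.32e-07 and 1.18e-08). The AMPK kinase STK11 rose by 0.91 ± 0.10 and 0.79 ± 0.10 in set 1. Of 12 genes that relay amino acid supply to the Rag GTPases, 2 rose and 5 fell with either construct in set 1 and with WTp53 in set 2, and 2 rose and 7 fell with tethered WTp53. The falls over all genes were 16.6% and 20.3% in set 1 and 18.9% and 26.2% in set 2, and the rises 15.2%, 15.7%, 17.9% and 21.6%. NPRL2, a subunit of GATOR1, which holds the Rag GTPases off, rose by 1.54 ± 0.19 with ΔNp53:WTp53 (limma adjusted p = 0.000235) and by 1.82 ± 0.06 with tethered WTp53. The GATOR1 subunit DEPDC5 fell by 0.32 ± 0.10 and 0.43 ± 0.04 in the same comparisons (limma adjusted p = 0.0321 and 1.08e-05). NPRL3, also of GATOR1, passed in neither (limma adjusted p = 0.0858 and 0.962). With WTp53 in set 1, NPRL2 rose too, by 1.10 ± 0.19, and DEPDC5 fell by 0.62 ± 0.10 (limma adjusted p = 0.00153 and 0.00116). In set 2 the means with the vector and WTp53 were 8.69 and 9.62 for NPRL2 and 7.69 and 7.40 for DEPDC5. KICS2, which belongs to the KICSTOR complex that anchors GATOR1, fell by 0.52 ± 0.06 with WTp53 in set 2.

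The Rag and Ragulator list split. LAMTOR2, a Ragulator subunit, rose by 0.74 ± 0.09 with WTp53 in set 1 and 0.81 ± 0.04 in set 2. FNIP1, a partner of folliculin, fell by 1.27 ± 0.18 and 0.96 ± 0.05 in the same comparisons. Of 11 genes 3 rose and 3 fell with WTp53 and 2 rose and 2 fell with ΔNp53:WTp53 in set 1; in set 2 these counts were 2 and 2 with WTp53 and 1 and 6 with tethered WTp53. The shares of all genes that rose and fell were 15.2% and 16.6%, 15.7% and 20.3%, 17.9% and 18.9%, and 21.6% and 26.2%. LAMTOR2 was also the gene of this list that was lower with ΔNp53:WTp53 than with WTp53, by 0.44 ± 0.09 (limma adjusted p = 0.0318). Against WTp53 the tethered construct gave 6 falls and 0 rises in this list by the limma test, against 17.5% and 14.9% of all genes, with LAMTOR3 at −0.69 ± 0.06 and LAMTOR5 at −0.36 ± 0.07 foremost.

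Among 8 genes of the PI3K and AKT input 5 rose and 2 fell with WTp53 and 5 rose and 1 fell with ΔNp53:WTp53 in set 1, where 15.2% and 15.7% of all genes rose and 16.6% and 20.3% fell. PIK3R1, a regulatory subunit of phosphoinositide 3-kinase, rose by 2.37 ± 0.21 with the combination and AKT1, the kinase that phosphorylates TSC2 and PRAS40, by 0.71 ± 0.10 (limma adjusted p = 4.22e-05 and 4.17e-04). RPS6KA1, a kinase of the ERK branch that phosphorylates TSC2, rose by 1.43 ± 0.11 with WTp53 and was lower with ΔNp53:WTp53 than with WTp53 by 0.71 ± 0.11 (limma adjusted p = 0.0146). In set 2 the counts were 4 and 2 with WTp53 and 4 and 3 with tethered WTp53, against 17.9% and 18.9%, and 21.6% and 26.2%, of all genes.

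The partners that build the complexes were few: of 5 measured, 1 rose and 1 fell with WTp53 and 0 rose and 2 fell with ΔNp53:WTp53 in set 1, and 0 rose and 3 fell with each construct in set 2. The falls over all genes were 16.6%, 20.3%, 18.9% and 26.2% and the rises 15.2%, 15.7%, 17.9% and 21.6%, so 1 and 1 of 5 lies near the background. TTI1, part of the TTT chaperone complex that assembles mTOR and related kinases, fell by 0.82 ± 0.18 with ΔNp53:WTp53 and by 0.49 ± 0.06 with tethered WTp53 (limma adjusted p = 0.00485 and 2.59e-05). MAPKAP1, the mTORC2 subunit SIN1, fell by 0.31 ± 0.04 with tethered WTp53.

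Of 18 substrates and effectors 3 rose and 1 fell with WTp53 and 4 rose and 2 fell with ΔNp53:WTp53 in set 1; in set 2 the counts were 4 and 7 with WTp53 and 3 and 8 with tethered WTp53. Of all genes 15.2% and 15.7% rose and 16.6% and 20.3% fell in set 1, and 17.9% and 21.6% rose and 18.9% and 26.2% fell in set 2, so the rises in set 1 lie near the background. RPS6KB1, the S6 kinase phosphorylated by mTORC1, fell by 0.38 ± 0.04 with WTp53 and 0.61 ± 0.04 with tethered WTp53 in set 2 (limma adjusted p = 2.24e-05 and 3.43e-07). ULK1, the autophagy kinase that mTORC1 holds off, rose by 0.75 ± 0.14 and 0.88 ± 0.14 in set 1. TFEB, the lysosomal transcription factor that mTORC1 keeps in the cytoplasm, rose by 1.04 ± 0.06 with tethered WTp53 (limma adjusted p = 1.05e-07), and EEF2K, the kinase of elongation factor 2, by 0.82 ± 0.13 with ΔNp53:WTp53. Protein amounts and phosphorylation were not measured.

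**Figure D5:**
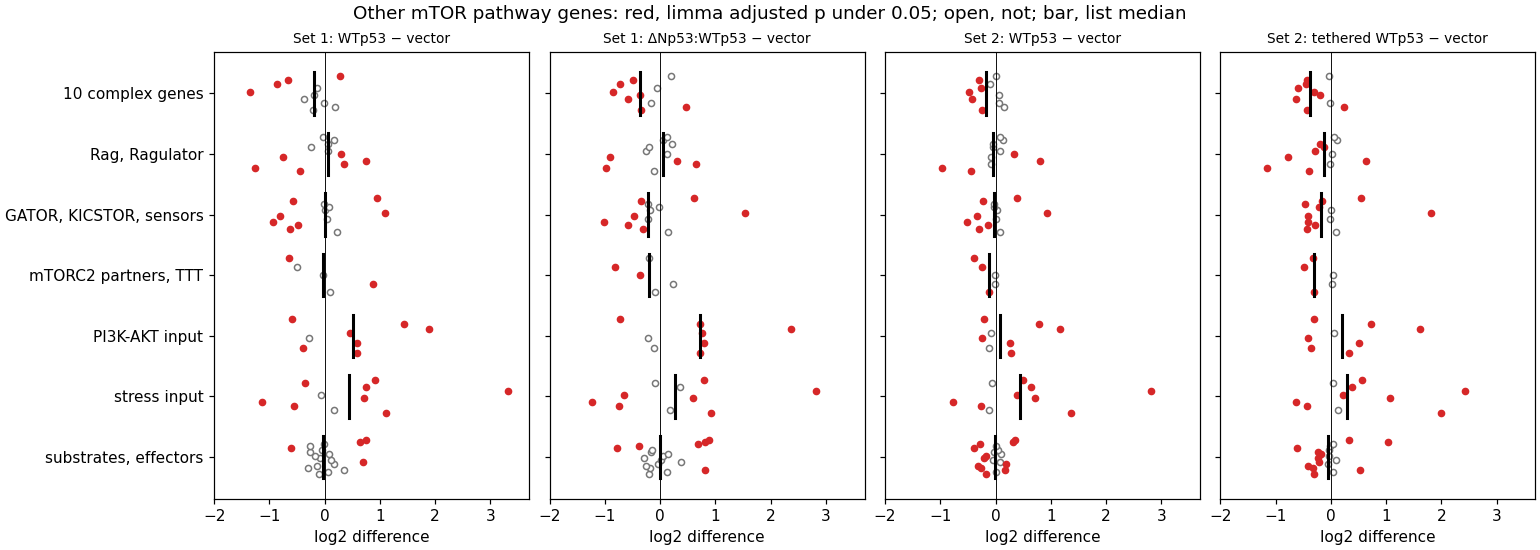
Log2 difference against the vector (horizontal axis) of every measured gene of the 6 pathway lists and of the 10 complex genes (rows), in the 4 comparisons with the vector. Red points passed a limma adjusted p of 0.05, black bars are list medians; the rightmost red point in the stress input row is SESN1, at 3.32 with WTp53 in set 1.

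The genes most like 3 of the members were found by Pearson correlation over the 9 arrays of set 1, as a description, since the arrays share groups and experiments. Nearest to MTOR were GTF3C1, a subunit of the RNA polymerase III factor TFIIIC (r = 0.987), NOL12, a nucleolar protein (0.986), and EARS2, the mitochondrial glutamyl-tRNA synthetase (0.986). Over the 9 arrays of set 2 their correlations with MTOR were 0.942, 0.853 and 0.992. Nearest to RICTOR were the helicase DDX20 (0.996), WDR82 (0.994) and IVNS1ABP (0.993), at 0.885, 0.558 and 0.546 in set 2. Nearest to RRAGB were POLR3F, a subunit of RNA polymerase III (0.977), NFKBIL1 (0.976) and the zinc finger gene ZNF138 (0.975), at 0.531, 0.657 and 0.873 in set 2.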

How the data were processed

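The values are log2 intensities per probe set that the authors deposited after RMA in Affymetrix Expression Console, per the submitters' processing notes, which give no versions; the genome build is not given in the sources used here. The 2 sets lie on different scales (array medians over genes 5.73 to 5.81 and 7.66 to 7.75). Of 33297 probe sets 19460 have 1 symbol in GEO's platform annotation, 1754 have several and 12083 are not listed. Per gene, the brightest probe set on average was used (18417 genes), with no filter on dim genes.

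Each set of 9 arrays was modelled alone, with its 3 group means, by limma 3.58.1 in R 4.3.3 (two-sided, 6 residual degrees of freedom), with Benjamini-Hochberg adjustment over all genes and a threshold of 0.05. Differences between sets used all 18 arrays with a variance weight per set. The fit was tested on simulated data. For ΔNp53:WTp53 against WTp53 in set 1 it called 2% of 1.2-fold and 50% of 1.5-fold shifts. For tethered WTp53 against WTp53 in set 2 it called 66% and 100%. Members, lists and motifs were chosen with earlier results of these data, or the promoter letters, known. By rule all 10 members were named, with CDKN1A and MDM2, and 1 or both of the 2 list genes with the smallest p per comparison. The rule also named the 3 genes most correlated with MTOR and with each of the 2 members that changed most in set 1. RRAGA, RRAGC, RRAGD, DEPDC5 and NPRL3 were added after their values were seen, as were further comparisons of genes named by the rule in another.

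Same-experiment residuals of different groups correlated at 0.106 to 0.572 in set 1 (9 of 9 pairs above 0.1), so its experiment labels were taken to pair arrays. That pairing entered the within-experiment differences and the fits with the experiment as a block. The main fits held no block, so their p-values ignore it. Residuals of different experiments ran from −0.499 to 0.35 (6 of 18 pairs above 0.1). ΔNp53:WTp53 of experiment 4 correlated at 0.35 with WTp53 of experiment 5 and 0.309 with that of experiment 4. In set 2 same-experiment residuals ran from −0.039 to 0.132 (2 of 9 above 0.1), and the letters were treated as labels. The number of arrays limits the precision.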

Additional observations from a re-analysis of the deposited data

Results flagged for a closer look

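In 3 cases an effect measured in set 1 differed from its counterpart in set 2 by the test of the difference itself. For the WTp53 effect these were 2 of 10 genes, against 13.2% of all genes. For ΔNp53:WTp53 and tethered WTp53 it was 1 of 10 with each against the vector, against 6.88%. With each against WTp53 it was 0 of 10, against 2.51%. The fall of RICTOR with WTp53 was −1.36 in set 1 and −0.47 in set 2, a difference of −0.89 ± 0.17 (limma adjusted p = 0.00284). The fall of RRAGB with WTp53 was −0.87 in set 1, while in set 2 its difference was −0.09 and did not pass; the effects differed by −0.78 ± 0.14 (limma adjusted p = 0.00215). RPTOR differed from the vector by −0.05 with ΔNp53:WTp53 in set 1 and by −0.59 with tethered WTp53 in set 2, a difference of 0.54 ± 0.12 (limma adjusted p = 0.0151). WTp53 differences were smaller in set 2 over all genes as well, with a median absolute value of 0.107 against 0.198 in set 1. The 2 sets were normalized apart and their constructs were transfected in different experiments, so set and experiment cannot be told apart. For RPTOR the constructs compared differ as well, so construct and set cannot be told apart either.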

How the results depend on the processing

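None of the differences of the 10 genes that passed, in the main fits or under an alternative, changed sign. Of 60 differences within sets 31 passed, 14 of them under all 21 alternatives; 17 were lost under at least 1, of which 10 only when arrays were left out, and 7 that had not passed did so under at least 1. The alternatives include the mean of all probe sets of a gene and the other probe set of RHEB. Among the 10 genes these can change the values of RHEB only. With all 18 arrays in one fit the genes called were 7 in place of 4 for WTp53 against the vector in set 1, 1 in place of 0 for ΔNp53:WTp53 against WTp53, and 3 in place of 7 for tethered WTp53 against WTp53. For the difference between ΔNp53:WTp53 and tethered WTp53, each against WTp53, 1 gene passed with arrays centred on their medians and 1 with the experiment as a block, in place of 0. With each against the vector the block gave 2 in place of 1. Apart from the calls named here and TSC1 for tethered WTp53 against WTp53, the block changed no call of these genes. Leaving out single arrays or whole experiments gave, for WTp53 and ΔNp53:WTp53 against the vector and ΔNp53:WTp53 against WTp53, 2 to 6, 0 to 7 and 0 to 1 genes. In set 2 it gave 4 to 5, 7 to 8 and 3 to 7 for WTp53 and tethered WTp53 against the vector and tethered WTp53 against WTp53. For the differences of effects it gave 2 to 5 for WTp53, 0 to 1 against WTp53 and 0 to 3 against the vector. Leaving out an experiment leaves 2 arrays per group, and the part of this in the lower counts was not tested. Without experiment 0 the 3 set 1 comparisons had 7029, 8101 and 2461 calls over all genes, in place of 5862, 6640 and 449. Over all genes ΔNp53:WTp53 against WTp53 had 449 calls, 2693 with all 18 arrays, 96 with 6 arrays, 806 with the block and 0 to 2461 without one experiment. Tethered WTp53 against WTp53 had 5970, 3236 without experiment d and, with all 18 arrays, 1855; for WTp53 against the vector in set 2 these were 6769 and 3603. Without an experiment the set 1 counts against the vector fell as far as 2111 from 5862 for WTp53 and 1871 from 6640 for ΔNp53:WTp53. The differences of effects ran from 1009 to 3686, 131 to 980 and 355 to 3893 without 1 array, against 2440, 463 and 1267. Reading RHEB by its other probe set, chosen after seeing the data, changed the call of the WTp53 difference between sets (−0.41, limma adjusted p = 0.0447, in place of −0.25 and 0.12). The causes of these changes were not tested otherwise.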
